A study of Mus musculus with 9 samples.

Results

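Atp1b1, Fxyd2, Slc9a3, Slc9a3r1, Slc4a4, Pdzk1, Car4 and Car14 are 8 genes of the basolateral sodium pump and of sodium and bicarbonate reabsorption in the proximal tubule. They were taken by symbol from the 55385 gene IDs of the kidney expression tables, each matched 1 ID, and all 8 passed the expression filter that left 13718 genes to test. The animals were C57BL/6 mice in 3 groups of 3 biological repeats: kidneys taken 7 days after cisplatin, kidneys taken 3 days after cisplatin, and sham kidneys from animals given the same volume of saline. Cisplatin, a chemotherapy agent toxic to the kidney, was injected once into the peritoneum at 20 mg/kg. Whole-kidney RNA was sequenced, and each library came as a table of FPKM, a level corrected for transcript length and library size. The labels name no genetic change, and do not state the animals' age or sex. The sample titles give no day for the sham kidneys, and the same sham libraries served both cisplatin days.

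The sodium pump (Na+/K+-ATPase) sits in the basolateral membrane of tubule cells and drives sodium reabsorption by moving sodium out of the cell in exchange for potassium. In the proximal tubule, sodium enters from the lumen in exchange for protons, the protons convert filtered bicarbonate to carbon dioxide and water through carbonic anhydrase on the luminal membrane, and bicarbonate leaves the cell with sodium on the basolateral side. PDZ-domain scaffold proteins under the brush border hold the luminal transporters in place. The pump subunits are found along the whole nephron, whereas the exchanger, cotransporter and scaffold genes are best known from the proximal tubule.

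The tissue label was checked against defining markers. Proximal tubule markers (8 genes) summed to 2484.0, 2351.2 and 2749.5 FPKM at day 7, to 245.7, 269.6 and 331.3 FPKM at day 3, and to 1916.7, 3864.8 and 3855.2 FPKM in sham libraries 1, 2 and 3, and none of them was listed at 0 throughout a group. Sham library 1 therefore held a lower proximal marker sum than the other sham libraries, and all 8 genes described here were below their sham mean in it. Injured tubule markers (5 genes) summed to between 1143 and 1658 FPKM at day 3, against 3.82 to 40.0 FPKM in sham, highest in sham library 2. In day 7 libraries 1, 2 and 3 they summed to 5.2, 80.8 and 4.8 FPKM, so day 7 library 2 lay above every sham library. In whole-kidney RNA, fewer cells of a type and less RNA per cell cannot be told apart.

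Promoter windows of RefSeq on GRCm38.p6, reaching from 250 bases before to 50 bases after an annotated start, were held for 7 of the 8 genes in 9 windows. The windows of Car4, Car14 and Pdzk1 are printed because these genes fell furthest at day 3, and that of Atp1b1 because it fell least among the genes that passed the test and stood above sham at day 7. They are written 5′ to 3′ in the direction of the gene. Capitals mark matches on either strand to CAAAGTCCA (an element bound by HNF4 factors), TATAAA (the TATA box) and CCAAT (the CCAAT box, ATTGG on the other strand).
Car4, chr11:84957504-84957803, plus strand: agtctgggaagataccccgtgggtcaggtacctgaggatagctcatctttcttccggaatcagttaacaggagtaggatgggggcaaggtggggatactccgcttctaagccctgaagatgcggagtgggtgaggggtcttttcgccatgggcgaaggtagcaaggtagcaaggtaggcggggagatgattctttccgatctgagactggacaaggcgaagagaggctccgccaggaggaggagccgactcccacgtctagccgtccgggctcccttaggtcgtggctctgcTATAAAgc
Car14, chr3:95904636-95904935, minus strand: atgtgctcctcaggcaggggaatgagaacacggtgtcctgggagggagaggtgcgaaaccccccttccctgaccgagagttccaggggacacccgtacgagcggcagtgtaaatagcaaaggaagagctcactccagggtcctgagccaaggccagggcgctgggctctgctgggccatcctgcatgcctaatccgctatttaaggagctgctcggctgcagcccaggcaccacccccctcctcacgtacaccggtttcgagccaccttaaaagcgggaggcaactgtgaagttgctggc
Pdzk1, chr3:96829815-96830114, plus strand: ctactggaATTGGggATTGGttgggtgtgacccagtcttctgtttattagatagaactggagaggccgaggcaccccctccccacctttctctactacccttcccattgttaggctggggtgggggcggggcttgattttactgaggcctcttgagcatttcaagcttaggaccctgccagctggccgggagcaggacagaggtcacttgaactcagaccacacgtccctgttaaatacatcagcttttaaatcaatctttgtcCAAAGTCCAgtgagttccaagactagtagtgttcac
Atp1b1, chr1:164458306-164458605, minus strand: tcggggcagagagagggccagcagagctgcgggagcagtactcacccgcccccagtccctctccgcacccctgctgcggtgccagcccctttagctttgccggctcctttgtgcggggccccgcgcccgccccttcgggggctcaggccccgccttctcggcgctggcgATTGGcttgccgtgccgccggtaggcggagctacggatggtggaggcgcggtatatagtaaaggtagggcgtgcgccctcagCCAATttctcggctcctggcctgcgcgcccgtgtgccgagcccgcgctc

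Base composition differed among these windows: the GC content was 57.3% for Car4, 61% for Car14, 51% for the printed Pdzk1 window and 71% for Atp1b1, against a median of 52.7% over 32851 windows of the same length. The letters CAAAGTCCA, on either strand, were found in the printed Pdzk1 window alone among the 9, starting 15 bases after the annotated start, and in 0.475% of all windows. TATAAA was found in the Car4 window alone among the 9 and in 13.6% of all windows. In Car4 it starts 43 bases after the annotated start, not before it. CCAAT was in the Atp1b1 window, in both Pdzk1 windows, in the Slc9a3r1 window and in 1 Slc4a4 window, and in 37.4% of all windows. GTTAAT, a site of HNF1 factors, was in none of the 9 windows and in 7.1% of all windows. These motifs share no letters with one another in the printed windows. A match of letters is a description and says nothing of whether a factor was bound.

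**Figure D1:**
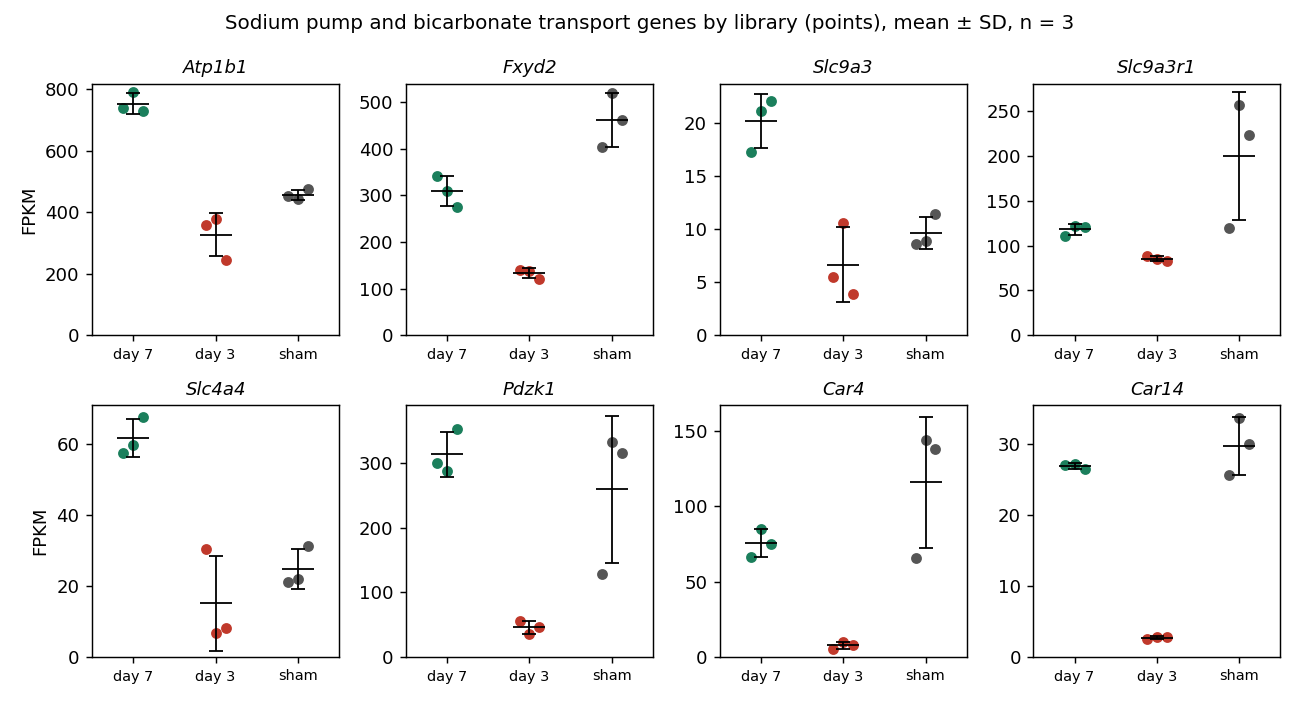
FPKM of the 8 genes in each library (points) at day 7, day 3 and in sham, with the group mean and SD (n = 3 each) and a separate linear scale from 0 in each panel. Car4 and Car14 sat at 5.49 to 9.71 and 2.46 to 2.82 FPKM at day 3, below every day 7 and sham library, whereas Atp1b1, Slc9a3 and Slc4a4 were higher in all day 7 libraries than in any sham library.

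Among the 8 genes at day 3, the carbonic anhydrase genes Car4 and Car14 and the scaffold gene Pdzk1 were reduced most, and the pump genes less. The sodium-proton exchanger and bicarbonate cotransporter genes did not pass the test. Of the 8 genes, 6 fell against sham and 2 did not pass, with 8 falling under median-of-ratios scaling and 5 when scaled to genes outside mitochondrial DNA. Over all genes tested, 20.6% were called lower and 39.3% higher at day 3, by limma on log2(FPKM + 1) with Benjamini-Hochberg adjustment over all 13718 genes at 0.05. The median log2 difference was -1.46 over the 8 genes, against 0.25 over all tested genes. Calls across all genes were 65.6% higher and became 50.8% higher with median-of-ratios scaling, which moved the median of all genes to 0.03.

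At day 7 the 8 genes lay on both sides of sham. Against sham, Atp1b1 and Slc9a3 rose, Fxyd2 fell, and the other 5 genes did not pass the test. Over all genes tested, 19.3% were called higher and 10.4% lower. The median log2 difference was 0.13 over the 8 genes and 0.06 over all tested genes, and the share of calls that were higher was 64.9%, or 50.2% with median-of-ratios scaling and 84.8% when scaled to genes outside mitochondrial DNA. Without sham library 2, or without day 7 library 3, 1 of the 8 genes was called at day 7 (Atp1b1), and without sham library 1, 4 were.

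Between the cisplatin groups, 7 of the 8 genes rose at day 7 against day 3, the exception being Slc9a3r1. Over all genes tested, 21.7% were called higher and 33.7% lower in that comparison. The median log2 difference was 1.91 over the 8 genes, against -0.16 over all tested genes. Of the calls, 39.2% were higher, or 50% with median-of-ratios scaling. This comparison shares its libraries with the comparisons against sham.

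**Figure D2:**
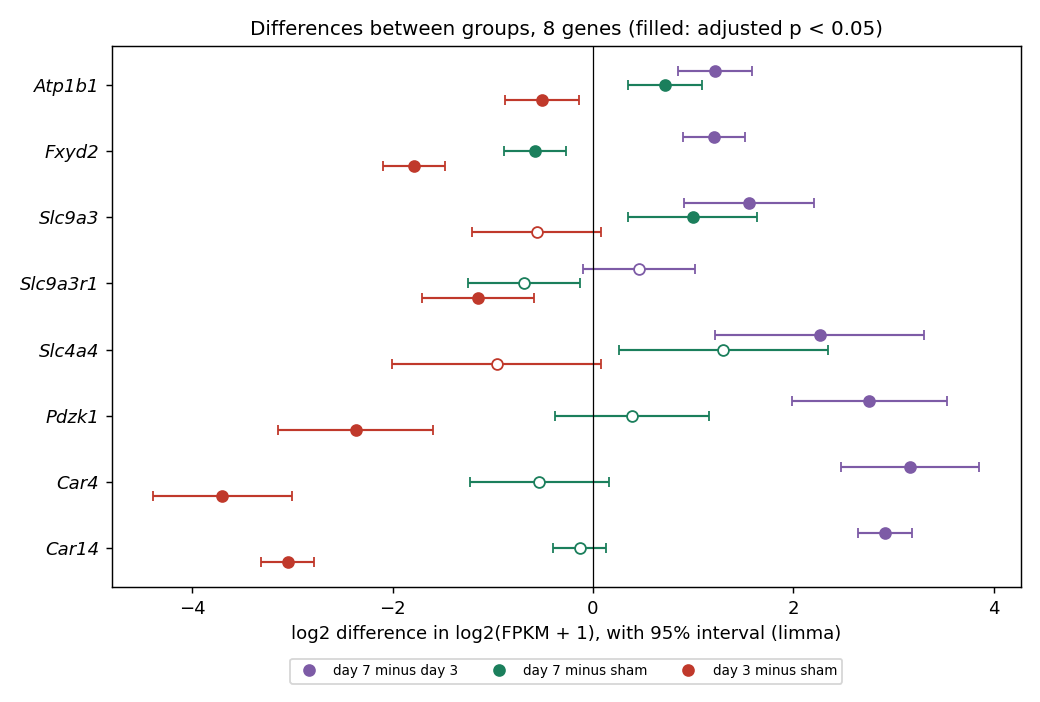
Differences of log2(FPKM + 1) between groups for each gene, with 95% intervals from limma; filled points passed an adjusted p of 0.05 over all genes tested. The day 3 values lie left of 0 for all 8 genes and reach -3.70 for Car4, while the day 7 against sham values lie on both sides, between -0.68 for Slc9a3r1 and 1.30 for Slc4a4.

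The pump genes came apart from each other. Atp1b1 (chromosome 1, 164437109 to 164458355, minus strand, GRCm38), which encodes the β1 subunit that brings the pump to the membrane, was at 738.49, 791.09 and 728.21 FPKM at day 7, at 357.01, 379.22 and 245.92 FPKM at day 3, and at 453.91, 442.84 and 474.83 FPKM in sham. All day 7 libraries were above all sham libraries, and all day 3 libraries below them. It rose by 0.72 ± 0.16 (SE) on the log2 scale at day 7 against sham, a 1.64-fold level on the fitted scale of FPKM + 1 (adjusted p = 0.0126, limma), and was 1.22 ± 0.16 higher at day 7 than at day 3 (adjusted p = 0.000318, limma). The fall at day 3 against sham was small, -0.51 ± 0.16 (adjusted p = 0.0249, limma). That call was lost in 7 of 18 alternatives, among them quantile normalization, scaling to genes outside mitochondrial DNA, and leaving out sham library 2 or 3 or day 3 library 3, with adjusted p-values of up to 0.306.

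Fxyd2 (chromosome 9, 45399669 to 45410278, plus strand), which encodes the γ subunit that tunes the pump's ion affinity in the kidney, was at 341.7, 310.51 and 276.3 FPKM at day 7, at 140.55, 138.21 and 120.94 FPKM at day 3, and at 404.48, 520.28 and 462.73 FPKM in sham. The 3 groups did not overlap, with day 3 lowest and sham highest. It fell by 1.78 ± 0.14 on the log2 scale at day 3 against sham, to 0.29 of the sham level on the fitted scale (adjusted p = 1.79e-05, limma). At day 7 it was still below sham by -0.58 ± 0.14 (adjusted p = 0.0144, limma), a call lost with quantile normalization, with scaling to genes outside mitochondrial DNA, without sham library 2 and without day 7 library 3 (adjusted p up to 0.171).

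A difference in log2 FPKM between 2 genes of the same library does not move when all values of that library are scaled together. With 1 FPKM added, as here, this holds only nearly, and less well for low genes such as Car14 at day 3. On the log2(FPKM + 1) scale, Fxyd2 minus Atp1b1 averaged -1.28 ± 0.15 at day 7, -1.27 ± 0.22 at day 3 and 0.01 ± 0.20 in sham (SD, n = 3 each). The cisplatin groups overlapped each other, and neither overlapped sham. Day 7 and day 3 differed in it by -0.02 (p = 0.9, exact permutation test, two-sided), and each differed from sham by -1.29 and -1.28 (p = 0.1 for each, exact permutation test). With 3 libraries against 3, 0.1 is the smallest p that this test can give, so none of the 18 comparisons of this kind could pass 0.05, and the lowest value adjusted over them was 0.18.

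**Figure D3:**
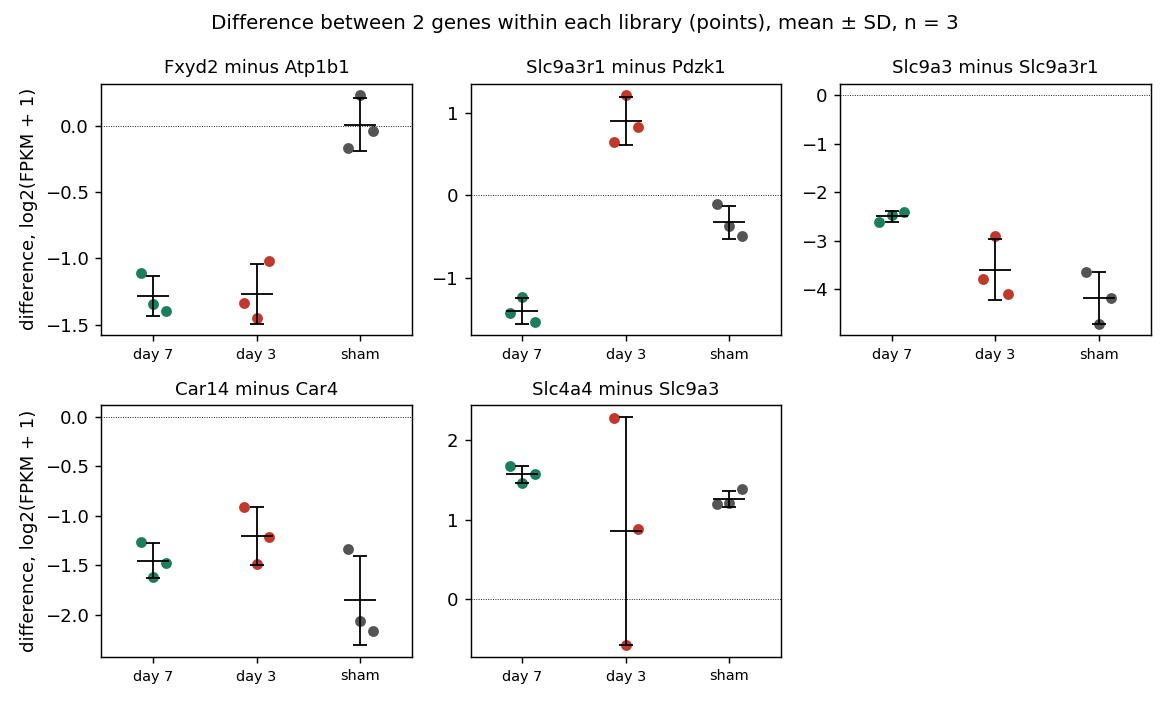
Difference in log2(FPKM + 1) between 2 genes of the same library (points) for 5 pairs, at day 7, day 3 and in sham, with mean and SD (n = 3 each). Fxyd2 minus Atp1b1 sits near -1.28 in both cisplatin groups and near 0.01 in sham, and Slc9a3r1 minus Pdzk1 is highest at day 3 and lowest at day 7.

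Of the other pump and FXYD subunit genes, 6 of 11 could be tested. At day 3, 2 rose and 3 fell, with a median log2 difference of -0.15. Fxyd5, which encodes dysadherin, another FXYD protein, rose to 10.03 ± 0.18 FPKM, against 3.18 ± 1.51 FPKM in sham (1.46 ± 0.29, adjusted p = 0.0023, limma). Atp1b3, the gene of the β3 subunit, rose at day 3 (0.90 ± 0.14, adjusted p = 0.000515, limma) to 54.5 ± 2.06 FPKM, against 29.0 ± 4.52 FPKM in sham. At day 7, 1 of the 6 rose and 1 fell: Atp1b3 was at 42.8 ± 4.46 FPKM (0.56 ± 0.14, adjusted p = 0.0164, limma), and Fxyd1, the gene of phospholemman, was lower at under 2 FPKM in every library (-0.50 ± 0.13, adjusted p = 0.0184, limma). The day 7 call of Atp1b3 was lost without sham library 2 and without day 7 library 1 or 2. That of Fxyd1 was lost in 5 of 17 alternatives.

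Slc9a3 (chromosome 13, 74121457 to 74169442, plus strand) encodes NHE3, the luminal sodium-proton exchanger. It was at 17.24, 21.13 and 22.08 FPKM at day 7, at 5.45, 10.61 and 3.88 FPKM at day 3, and at 8.63, 8.88 and 11.37 FPKM in sham. Every day 7 library was above every other library, and day 3 overlapped sham through day 3 library 2. At day 7 it stood at 1.99-fold the sham level on the fitted scale (0.99 ± 0.28, adjusted p = 0.0298, limma), and it was 1.56 ± 0.28 higher at day 7 than at day 3 (adjusted p = 0.0017, limma). The day 7 call against sham was lost without a filter on low values, and without any of 5 libraries (sham 1 or 2, day 7 1, 2 or 3), with adjusted p-values of up to 0.0902.

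The day 3 difference of Slc9a3 did not pass the test: it was -0.56 ± 0.28, with a 95% interval of -1.21 to 0.08 (adjusted p = 0.117, limma). Without day 3 library 2 it was -0.91 (adjusted p = 0.00497, limma), and with median-of-ratios scaling -0.82 (adjusted p = 0.0381, limma). Over all alternatives its adjusted p lay between 0.00497 and 0.368.

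Slc4a4 (chromosome 5, 88886818 to 89239653, plus strand) encodes NBCe1, the cotransporter that carries bicarbonate and sodium out across the basolateral membrane. It was at 57.38, 59.63 and 67.45 FPKM at day 7, at 30.3, 6.75 and 8.0 FPKM at day 3, and at 21.07, 21.77 and 31.19 FPKM in sham. Day 3 library 1 lay inside the sham range while the other day 3 libraries lay below it. The proximal marker sum of day 3 library 1 was 245.7 FPKM, the lowest of the 9, and its intercalated cell marker sum was 71.6 FPKM, against 35.6 and 29.5 FPKM in the other day 3 libraries; their part in the Slc4a4 value was not tested.

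At day 3 against sham the difference of Slc4a4 was -0.96 ± 0.46, with a 95% interval of -2.01 to 0.08 (adjusted p = 0.0991, limma), and without day 3 library 1 it was -1.60 (adjusted p = 0.000271, limma; 0.000271 to 0.307 over all alternatives). At day 7 all libraries were above all sham libraries, and the mean was 2.46-fold that of sham on the fitted scale (1.30 ± 0.46, 95% interval 0.26 to 2.34), which did not pass the adjustment (adjusted p = 0.0618, limma). That fit shares its spread with the day 3 group. Without day 3 library 1 the same difference had an adjusted p of 0.00184, and with the 6 libraries of the comparison alone 0.00562 (limma; 0.00184 to 0.151 over all alternatives). Day 7 was higher than day 3 by 2.26 ± 0.46 (adjusted p = 0.00293, limma).

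The difference Slc4a4 minus Slc9a3 within a library averaged 1.57 ± 0.11 at day 7, 0.86 ± 1.43 at day 3 and 1.26 ± 0.10 in sham (SD, n = 3 each). The 3 day 3 libraries spread from -0.58 to 2.28, while the other groups were narrow. Its difference between day 3 and sham was -0.40 and turned to 0.32 without day 3 library 2, and was -1.11 without day 3 library 1.

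Of 15 relatives and regulators of the exchanger 11 were tested: at day 3, 4 rose and 2 fell, with a median log2 difference of 0.19 that became -0.09 with median-of-ratios scaling. Ezr, the gene of ezrin, which ties the scaffold Slc9a3r1 to actin, was among those that rose at day 3 (0.95 ± 0.13, adjusted p = 0.000295, limma), at 223.0 ± 29.0 FPKM against 114.5 ± 11.2 FPKM in sham; it is named here after its values were seen. Sgk1, a kinase that raises sodium transport, rose by 1.58 ± 0.33 at day 3 (adjusted p = 0.00304, limma), and Chp1, the cofactor of sodium-proton exchangers, by 1.197 ± 0.16 (adjusted p = 0.000265, limma). Slc9a8, the gene of another luminal exchanger of the proximal tubule, fell at day 3 by 1.22 ± 0.41 (adjusted p = 0.0286, limma), a call lost in 7 of 18 alternatives.

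At day 7, 5 of the 11 rose against sham and 6 did not pass, with a median of 0.32 (4 higher and 1 lower with median-of-ratios scaling). Dpp4, the brush border peptidase found in complex with NHE3, rose by 0.61 ± 0.11 (adjusted p = 0.00532, limma), and Chp1 by 0.68 ± 0.16 (adjusted p = 0.0141, limma), the last lost without sham library 2 or day 7 library 3.

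The scaffold genes also differed in course. Slc9a3r1 (chromosome 11, 115163341 to 115181181, plus strand) encodes NHERF1, which binds NHE3 and the phosphate transporter of the brush border. It was at 111.01, 122.04 and 121.03 FPKM at day 7, at 88.49, 85.4 and 82.51 FPKM at day 3, and at 119.71, 256.61 and 223.46 FPKM in sham. Sham library 1 lay within the day 7 range, and the other sham libraries lay above all cisplatin libraries. It fell by 1.14 ± 0.25 at day 3 against sham (adjusted p = 0.00356, limma).

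Its difference at day 7 against sham was -0.68 ± 0.25 (95% interval -1.24 to -0.13, adjusted p = 0.0657, limma), and without sham library 1 it was -1.02 (adjusted p = 0.00388, limma; 0.00388 to 0.203 over all alternatives). Day 7 libraries were all above day 3 libraries, and that difference, 0.46 ± 0.25, did not pass in the fit of all 9 libraries (95% interval -0.10 to 1.02, adjusted p = 0.142, limma). It passed without sham library 1 (adjusted p = 0.00478, limma) and with the 6 cisplatin libraries alone (adjusted p = 0.00597, limma); the range over all alternatives was 0.00478 to 0.253.

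Pdzk1 (chromosome 3, 96829284 to 96870926, plus strand) encodes NHERF3, the scaffold with several PDZ domains that gathers organic ion and phosphate transporters at the brush border. It was at 300.44, 288.21 and 353.65 FPKM at day 7, at 56.15, 36.15 and 45.92 FPKM at day 3, and at 128.83, 333.38 and 315.75 FPKM in sham. All day 3 libraries were below all others, and day 7 overlapped sham. It fell by 2.37 ± 0.34 at day 3 (adjusted p = 0.000403, limma), to 0.193 of the sham level on the fitted scale, and was 2.76 ± 0.34 higher at day 7 than at day 3 (adjusted p = 0.000214, limma). At day 7 against sham the difference was 0.39 ± 0.34 (95% interval -0.38 to 1.16, adjusted p = 0.422, limma), and -0.05 without sham library 1.

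Slc9a3r1 minus Pdzk1 within a library averaged -1.40 ± 0.15 at day 7, 0.90 ± 0.29 at day 3 and -0.33 ± 0.20 in sham (SD, n = 3 each). The 3 groups did not overlap, with day 3 above sham and day 7 below it (p = 0.1 in each comparison, exact permutation test). Slc9a3 minus Slc9a3r1 averaged -2.50 ± 0.11 at day 7, -3.60 ± 0.63 at day 3 and -4.18 ± 0.53 in sham, so that all day 7 libraries were above all others.

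Among the 16 genes whose proteins are known partners of these scaffolds or share the brush border, all tested, 9 fell and 1 rose at day 3 (median -2.11). This list shares Slc34a1, Cubn and Lrp2 with the proximal tubule markers summed above. Slc34a1, the phosphate transporter gene, fell to 30.9 ± 18.7 FPKM, against 811 ± 363 FPKM in sham (-4.79 ± 0.55, adjusted p = 0.000125, limma). Slc22a12, which encodes the urate transporter, fell by 3.98 ± 0.37 (adjusted p = 4.54e-05, limma) and Cubn, the gene of the endocytic receptor cubilin, by 2.94 ± 0.20 (adjusted p = 1.04e-05, limma). At day 7 the list had 3 genes higher and 1 lower than sham (median 0.24). Slc5a8, a sodium-coupled lactate transporter, was at 55.9 ± 7.34 FPKM at day 7 and 24.0 ± 6.47 FPKM in sham (1.21 ± 0.19, adjusted p = 0.00293, limma). Myo6, the brush border myosin gene, rose by 1.04 ± 0.19 (adjusted p = 0.00569, limma). Pdzk1ip1, the gene of the small membrane protein MAP17 that binds Pdzk1, was at 161.5 ± 8.39 FPKM at day 7 and 396 ± 34.4 FPKM in sham (-1.29 ± 0.36, adjusted p = 0.027, limma), a call lost in 8 of 18 alternatives.

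Car4 (chromosome 11, 84957786 to 84966044, plus strand) encodes the lipid-anchored carbonic anhydrase IV of the luminal and basolateral membranes. It was at 66.29, 85.13 and 75.3 FPKM at day 7, at 5.49, 9.71 and 7.82 FPKM at day 3, and at 65.85, 144.2 and 137.95 FPKM in sham. Day 3 lay far below both other groups, and sham library 1 lay below the day 7 libraries. It fell by 3.70 ± 0.30 at day 3, to 0.0769 of the sham level on the fitted scale (adjusted p = 2.49e-05, limma), and was 3.16 ± 0.30 higher at day 7 than at day 3 (adjusted p = 6.57e-05, limma). At day 7 against sham the difference was -0.54 ± 0.30 (95% interval -1.23 to 0.16, adjusted p = 0.216, limma). Without sham library 1 it was -0.90 (adjusted p = 0.0192, limma; 0.0192 to 0.498 over all alternatives).

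Car14 (chromosome 3, 95897768 to 95904691, minus strand) encodes carbonic anhydrase XIV, which spans the membrane and faces the lumen. It was at 27.06, 27.15 and 26.4 FPKM at day 7, at 2.46, 2.82 and 2.8 FPKM at day 3, and at 25.53, 33.68 and 30.02 FPKM in sham. The day 7 libraries lay inside the sham range, and the day 3 libraries far below it. It fell by 3.05 ± 0.12 at day 3 (adjusted p = 1.71e-06, limma) and was 2.92 ± 0.12 higher at day 7 than at day 3 (adjusted p = 1.41e-06, limma). The difference from sham at day 7 was -0.13 ± 0.12, with a 95% interval of -0.40 to 0.14 (adjusted p = 0.43, limma). Car14 lies 0.92 Mb from Pdzk1 on chromosome 3.

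Car14 minus Car4 averaged -1.45 ± 0.18 at day 7, -1.203 ± 0.29 at day 3 and -1.85 ± 0.45 in sham (SD, n = 3 each), and the groups overlapped in every comparison (smallest p = 0.2, exact permutation test).

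**Figure D4:**
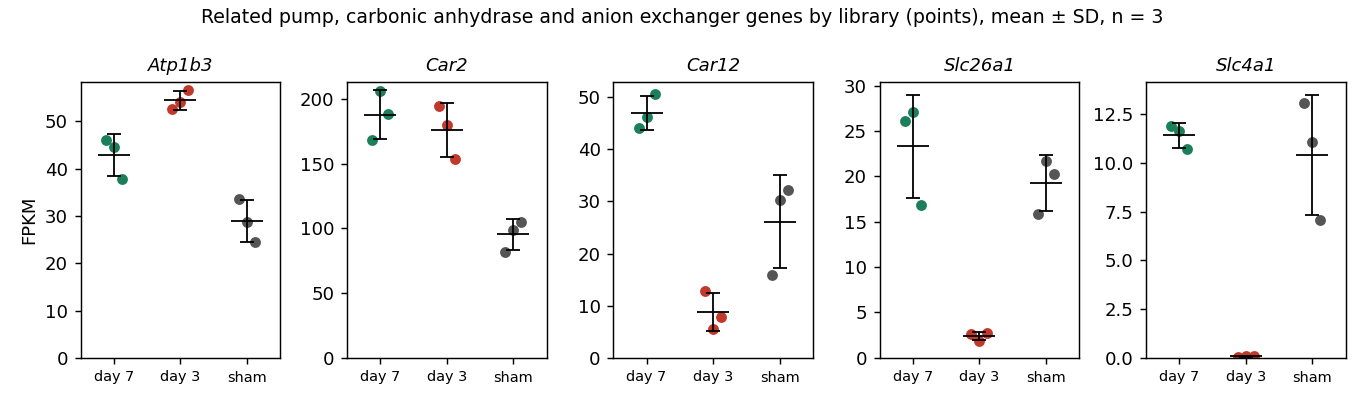
FPKM of 5 related genes in each library (points) at day 7, day 3 and in sham, with mean and SD (n = 3 each) and linear scales from 0. Car2 and Atp1b3 are higher in all cisplatin libraries than in any sham library, and Slc4a1 is at 0.04 to 0.12 FPKM at day 3.

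Calls among the other carbonic anhydrases went in both directions. Of 14 listed, 9 were tested: 2 rose and 3 fell at day 3 (median -0.18), and 1 rose and 1 fell at day 7 (median 0.35; 3 rose and 1 fell when scaled to genes outside mitochondrial DNA). Car2, the abundant cytosolic enzyme of proximal and intercalated cells, was at 168.08, 205.9 and 188.6 FPKM at day 7, at 194.4, 179.63 and 153.53 FPKM at day 3, and at 81.89, 99.05 and 104.94 FPKM in sham. All cisplatin libraries were above all sham libraries, by 0.97 ± 0.14 at day 7 (adjusted p = 0.00244, limma) and 0.88 ± 0.14 at day 3 (adjusted p = 0.000796, limma). Car13, another cytosolic form, rose at day 3 (2.05 ± 0.22, adjusted p = 9.32e-05, limma), to 7.82 ± 1.60 FPKM against 1.12 ± 0.32 FPKM in sham.

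Car12, a membrane-bound form, was at 47.0 ± 3.31 FPKM at day 7, 8.76 ± 3.68 FPKM at day 3 and 26.1 ± 8.86 FPKM in sham. It fell by 1.48 ± 0.31 at day 3 against sham (adjusted p = 0.00316, limma) and was 2.36 ± 0.31 higher at day 7 than at day 3 (adjusted p = 0.000298, limma), with 0.88 ± 0.31 at day 7 against sham (adjusted p = 0.0621, limma). Car5a, a mitochondrial form named after its values were seen, had the same calls at a lower level, at 1.19 ± 0.21 FPKM at day 7, 0.12 ± 0.08 FPKM at day 3 and 1.77 ± 0.86 FPKM in sham. Its difference was -1.27 ± 0.20 at day 3 against sham (adjusted p = 0.000706, limma) and 0.96 ± 0.20 at day 7 against day 3 (adjusted p = 0.00347, limma). Car9 fell at day 3 (-1.82 ± 0.14, adjusted p = 1.75e-05, limma) and was below sham at day 7 (-0.92 ± 0.14, adjusted p = 0.0026, limma), at 2.42 ± 0.14 FPKM against 5.50 ± 0.90 FPKM. Car3 was 2.80 ± 0.54 higher at day 7 than at day 3 (adjusted p = 0.00237, limma).

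Among 13 other bicarbonate and anion exchanger genes 8 were tested, with 1 higher and 4 lower at day 3 (median -0.76) and none called at day 7 against sham by limma (median 0.05, or -0.03 with median-of-ratios scaling), where the smallest unadjusted p was 0.125 for Slc26a4. Slc26a1, the basolateral sulfate and anion exchanger of the proximal tubule, fell by 2.57 ± 0.21 at day 3 (adjusted p = 2.26e-05, limma). Slc4a1, the chloride-bicarbonate exchanger AE1 of acid-secreting intercalated cells and of red cells, fell by 3.36 ± 0.19 (adjusted p = 5.47e-06, limma). Red cell markers (5 genes) summed to between 4.31 and 10.7 FPKM at day 3 and to between 100.3 and 129.8 FPKM in sham. In day 7 libraries 1, 2 and 3 they summed to 82.7, 20.2 and 342.6 FPKM, with Slc4a1 at 11.91, 11.62 and 10.71 FPKM. Intercalated cell markers, which include Slc4a1 and Slc26a4, summed to 29.5 to 71.6 FPKM at day 3 and 78.2 to 89.8 FPKM in sham. In day 7 libraries 1, 2 and 3 these markers summed to 99.0, 129.1 and 105.9 FPKM, above every sham library. Of the 5 intercalated cell markers, 1 was called higher at day 7 against sham and 4 did not pass, where 19.3% of all tested genes were higher. The part of either cell type in the fall of Slc4a1 was not tested. Slc4a11, a distant member of the same family, rose to 15.2 ± 0.83 FPKM at day 3, against 2.67 ± 1.51 FPKM in sham (2.23 ± 0.32, adjusted p = 0.000367, limma). Slc26a4, pendrin of base-secreting intercalated cells, was 2.79 ± 0.42 higher at day 7 than at day 3 (adjusted p = 0.000639, limma).

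The list of ammonia and base generation also held a water channel gene and proton pump subunit genes. Of its 12 genes, all tested, 7 were lower and 3 higher at day 3 (median -1.45), or 8 lower and 1 higher with median-of-ratios scaling. At day 7, 3 were higher (median 0.46), or 2 with median-of-ratios scaling, 5 when scaled to genes outside mitochondrial DNA and 6 with quantile normalization. Pck1, which encodes the gluconeogenic enzyme PEPCK, fell by 3.82 ± 0.69 at day 3 (adjusted p = 0.00141, limma), Slc7a7 by 2.78 ± 0.19 (adjusted p = 1.08e-05, limma) and the water channel gene Aqp1 by 2.10 ± 0.32 (adjusted p = 0.00054, limma). At day 7 the proton pump subunit gene Atp6v1a was at 74.6 ± 8.27 FPKM, against 35.1 ± 4.82 FPKM in sham (1.07 ± 0.14, adjusted p = 0.00189, limma). Atp6v0a4, another subunit of that pump, rose by 0.72 ± 0.21 (adjusted p = 0.03, limma), a call lost in 7 of 18 alternatives. Intercalated cell markers also summed higher at day 7 than in sham, and their part in these rises was not tested.

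Other sodium-coupled entry genes of the proximal tubule, all 10 tested, had 8 lower and 1 higher at day 3 (median -2.83), and 1 higher and 1 lower at day 7 (median 0.17). This list shares Slc5a2 and Slc13a3 with the proximal tubule markers summed above. The dicarboxylate transporter gene Slc13a2 fell by 3.78 ± 0.21 at day 3 (adjusted p = 4.79e-06, limma), the glucose transporter gene Slc5a2 by 3.15 ± 0.35 (adjusted p = 9.52e-05, limma) and Slc13a3 by 3.14 ± 0.31 (adjusted p = 5.53e-05, limma). At day 7 the neutral amino acid transporter gene Slc6a19 rose by 1.03 ± 0.20 (adjusted p = 0.00616, limma), and Slc13a2 was lower by -0.67 ± 0.21 (adjusted p = 0.0383, limma), which was lost in 10 of 18 alternatives.

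**Figure D5:**
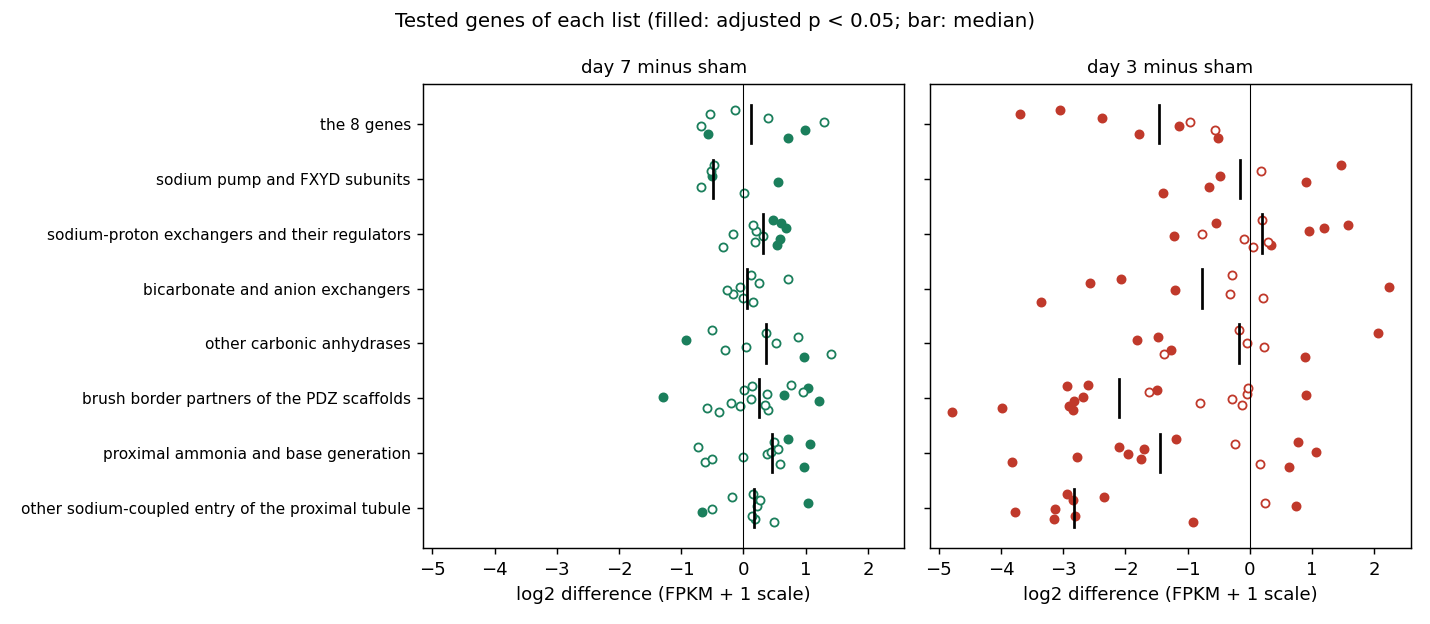
Difference of log2(FPKM + 1) from sham at day 7 (left) and day 3 (right) for each tested gene (points) of the 8 genes and 7 related lists; filled points passed an adjusted p of 0.05 over all genes tested and bars are list medians. The medians at day 3 reach -2.83 for other sodium-coupled entry and -1.46 for the 8 genes, and at day 7 every list median lies between -0.49 and 0.46.

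The order of the 8 genes by level, which FPKM allows because it is scaled to length, changed between groups. At day 7 Atp1b1 led at 753 FPKM, followed by Pdzk1 at 314 and Fxyd2 at 310 FPKM, whose libraries overlapped. At day 3 Atp1b1 led at 327 FPKM and Car14 was last at 2.69 FPKM, below Slc9a3 at 6.65 FPKM. In sham Fxyd2 at 462 FPKM and Atp1b1 at 457 FPKM led with overlapping libraries, and Slc9a3 was last at 9.63 FPKM.

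Likeness of course was measured as the root mean square difference of log2(FPKM + 1), centred per gene, over the 9 libraries. Among the 8 genes, Atp1b1 and Slc9a3 were closest to each other (0.266), followed by Car4 and Car14 (0.379), and Atp1b1 and Car4 were farthest apart (1.369). Of 7476 other genes, Mthfd1, an enzyme of folate metabolism, came closest to the mean course of the 8 (0.119), followed by B3gat2 (0.122) and Cth, an enzyme of cysteine synthesis (0.125). The nearest gene to Atp1b1 was Ppargc1a (0.092), a transcriptional coactivator of mitochondrial genes, which was also nearest to Slc9a3 (0.244). Bdh1 was nearest to Car14 (0.115), Dao, the D-amino acid oxidase gene, to Car4 (0.202), Mgat3 to Pdzk1 (0.174), Ogfod3 to Fxyd2 (0.085), Zfp524 to Slc9a3r1 (0.181) and Esrrg, a nuclear receptor gene, to Slc4a4 (0.34).

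Markers of other cells (5 genes a list unless stated) moved with the groups, and their part in these differences was not tested. Thick ascending limb markers (5 genes), from a segment rich in the sodium pump, summed to between 1192 and 1376 FPKM at day 7, between 140.2 and 529.9 FPKM at day 3, and between 1032 and 1604 FPKM in sham. Umod (named after its values were seen), at 894.46 to 1409.45 FPKM in sham, made up most of that sum in every library. Of these 5 markers, 2 were called higher and 0 lower at day 7 against sham, where 19.3% of all tested genes were higher and 10.4% lower. Distal convoluted tubule markers (4 genes), from another such segment, summed to between 170.7 and 213.9 FPKM at day 7, between 4.75 and 11.1 FPKM at day 3, and between 55.1 and 139.7 FPKM in sham. Macrophage markers (5 genes) summed to between 25.9 and 67.5 FPKM at day 7, between 107.2 and 137.6 FPKM at day 3, and between 58.6 and 64.0 FPKM in sham, with Cd68 (named after its values were seen) at 86.69 to 113.57 FPKM at day 3 making up most of that sum while 3 of the 4 tested macrophage markers fell. Neutrophil markers (5 genes) summed to between 4.55 and 22.6, between 29.2 and 104.0, and between 2.69 and 14.5 FPKM in the same groups. Sums for principal cell markers were 143.4 to 258.1 FPKM at day 7, 52.4 to 130.9 FPKM at day 3 and 195.2 to 427.4 FPKM in sham. Podocyte markers summed to 78.0 to 107.5, 45.0 to 93.8 and 88.3 to 104.7 FPKM in the same groups, endothelial markers to 32.9 to 44.9, 22.4 to 62.2 and 40.3 to 52.3 FPKM, and fibroblast markers to 14.7 to 40.4, 22.1 to 71.0 and 13.6 to 19.4 FPKM. T cell markers summed to at most 3.74 FPKM in any library, and to 0.08 to 0.09 FPKM at day 3. None of these markers was listed at 0 in all libraries of a group.

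Some of the genes share sequence positions with others. Gpr89 overlaps Pdzk1 by 2646 bases on the opposite strand and was at 7.5 to 12.16 FPKM at day 3, against 19.25 to 30.89 FPKM in sham. Aph1a overlaps Car14 by 521 bases and Nme7 overlaps Atp1b1 by 617 bases, also on opposite strands. The library kit was directional, but no source used here states the strand setting of the counting, so reads in the shared stretches could not be assigned with certainty.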

How the data were processed

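Kidney RNA of 9 mice was sequenced, 3 libraries per group. Per the labels' protocols, TRIzol RNA with an integrity number above 7.0 entered a directional NEB kit, 2 µg per sample. The deposited values are FPKM per gene made by the authors, per the file headers. The submitters' processing notes name HISAT, StringTie, FastQC 0.10.1 and GRCm38 without role or order. The tables hold no counts, so read depth is unknown. Library sums ran from 421810.0 to 509536.8 FPKM, with 11647 to 13183 genes at 1 FPKM or above, a mitochondrially encoded share of 25.58% to 32.59%, and within-group correlations of 0.942 to 0.98. The repeats are labelled biological.

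Symbols and coordinates came from GENCODE M21 (55144 of 55385 IDs had a symbol). Genes with at least 1 FPKM in 3 or more libraries entered limma 3.58.1 (R 4.3.3): 3 group means on log2(FPKM + 1), which understates changes of low genes, and moderated variances with a trend. All contrasts were two-sided, adjusted by Benjamini-Hochberg over every tested gene, and called at 0.05. Errors are SD for FPKM and within-library differences, and SE for log2 differences. Within-library differences had exact permutation tests (scipy 1.17.1). The model was tested on simulated data.

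The 8 genes, the 7 related lists and the 13 marker lists were chosen with earlier results of these data known. Named genes are, per list and comparison, up to 3 called genes of greatest change that average 1 FPKM or more in some group, and the nearest genes by course with at least 5 FPKM; some genes that the rule names, and 1 within-library pair, are not reported here. Other settings tried were pseudocount 0.1, no low-value filter or one at 5 FPKM, 3 further scalings, robust variances, only the 6 libraries compared, the replicate number as block, and each library left out.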

Additional observations from a re-analysis of the deposited data

Results flagged for a closer look

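For 7 of the 8 genes, the response to cisplatin at day 7 and that at day 3, each against sham, differed by the test of the difference itself, which is the day 7 against day 3 contrast (limma, adjusted p under 0.05). The log2 difference was 3.16 for Car4, 2.92 for Car14, 2.76 for Pdzk1, 2.26 for Slc4a4, 1.56 for Slc9a3, 1.22 for Atp1b1 and 1.21 for Fxyd2, day 7 being the higher. Groups of 3 libraries are too small for a check of single outlying libraries.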

How the results depend on the processing

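The log2 differences of the 8 genes were recomputed under 18 alternatives in 3 comparisons, 432 values in all. Of these, 400 kept their direction and their side of the threshold, 17 lost a call, 13 gained one and 2 changed sign, both at day 7 against sham and neither called: Car14 at 0.07 when scaled to genes outside mitochondrial DNA, and Pdzk1 at -0.05 without sham library 1 (up to 0.63 without sham library 2). In the day 7 against day 3 comparison no call was lost. Leaving out each library in turn, the number of the 8 genes called was 5 to 7 at day 3, 1 to 4 at day 7 against sham and 7 to 8 at day 7 against day 3, and the number of all tested genes called was 2474 to 4702 at day 7 against sham (4075 with all libraries), with 2474 without sham library 2, and 2639, 2651 and 2598 without day 7 library 1, 2 and 3. A filter at 5 FPKM tests fewer genes and called 5104 at day 3 (8214 otherwise) and 4973 at day 7 against day 3 (7603 otherwise). With the replicate number as a block, the 8 genes had 6, 3 and 7 calls in the comparisons of day 3 with sham, day 7 with sham and day 7 with day 3, the same numbers as without it, and no call on any of the 8 changed. Same-numbered libraries deviated from their group means with correlations of -0.054 to 0.238, and differently numbered ones with -0.28 to 0.115. The highest, 0.238, was between sham library 3 and day 7 library 3. Whether a shared number marks a shared batch or pairing is not known from these values. Within-library differences moved by less than 1 SD, pooled over the 2 groups compared, with a pseudocount of 0.1 and without each library. For Slc4a4 minus Slc9a3 that yardstick was wide, as the SD of the day 3 group alone was 1.43. Leaving out each library in turn, that pair ran from -1.11 to 0.32 at day 3 against sham and from -0.01 to 1.42 at day 7 against day 3, and Fxyd2 minus Atp1b1 from -0.11 to 0.11 at day 7 against day 3, so these 3 changed sign. With 3 libraries per group and unknown read depth, a difference that missed the threshold is not shown to be absent.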
